A study of Danio rerio with 3 samples.

Results

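RNA levels of solute carrier genes were read out in endothelial cells that had been sorted from whole zebrafish embryos 72 hours after fertilization. Solute carriers are membrane proteins that move nutrients, ions, vitamins, metals and metabolites across the plasma membrane and the membranes of organelles, and they are numbered by family, so that slc2 holds sugar carriers and slc25 mitochondrial carriers. In endothelium they help to set what passes between blood and tissue, and the vessels of the brain are known for a rich set of carriers for glucose and amino acids, because their tight junctions close the path between cells. Members were all gene symbols made of slc, a family number, the letter a and a member number. This gave 324 symbols over the gene columns of both deposited tables, of which 251 from 45 families had a value analysed here, among 14581 gene symbols in that table. The remaining 73 symbols occur only in the other table and were not analysed here, among them slc2a1b and slc44a2.

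The values come from 1 library of cells that carried both kdrl:mCherry and sele:GFP, sorted from untreated wild-type embryos bearing both transgenes. The kdrl reporter marks endothelium through a Vegf receptor gene, and the sele reporter follows the gene of E-selectin, an adhesion molecule for leukocytes. The series also holds 1 library of kdrl:GFP + cells and 1 of kdrl:GFP - cells, which were not analysed here because no label says which value column belongs to which. Levels of carriers in double positive cells could therefore not be set against endothelium as a whole or against other cells. With 1 library there was no spread between samples and no test, and a level is called high or low only beside the levels of other genes in it. In a sorted population, fewer cells of a type and less RNA per cell cannot be told apart.

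Markers of endothelium were abundant, and all 12 in the table lay between 89.1 and 843 FPKM, with a median of 304 FPKM. FPKM is the number of sequenced fragments per length of transcript, scaled to the fragments of the library, so levels of different genes can be compared per length. Lists of markers of other cells had lower medians, but some of their members were abundant. Erythroid markers had a median of 15.99 FPKM over 10 genes, with the globin genes hbae3 and hbae1 at 252 and 200.01 FPKM, leukocyte markers 14.9 FPKM over 7 and muscle markers 7.19 FPKM over 8. Epidermal markers had a median of 13.4 FPKM over 8 genes, and their keratin gene krt8 had rank 31 among all genes at 1494 FPKM, above all 12 endothelial markers. Neuronal markers had a median of 5.49 FPKM over 8 genes, liver, gut and pancreas markers 4.70 FPKM over 10 and glial markers 1.83 FPKM over 6, with the glutamine synthetase gene glula at 158 FPKM. Ionocyte and kidney markers stood at a median of 0.908 FPKM over 9 genes and pigment cell markers at 0.807 FPKM over 6. The neuronal marker gap43, the ionocyte marker ca15a and the gut marker fabp1b.1 were listed at 0. The part that RNA of such cells has in the carrier levels was not tested. No source used here states how many fragments were sequenced, so the depth behind each value is unknown.

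Solute carrier genes as a group lay below the library's typical gene, with a small set far above it. Their median was 3.35 FPKM, against 5.98 FPKM for all genes, and the median rank percentile of the members was 40.4. Of the members, 164 (65.3%) reached 1 FPKM, against 73.3% of all genes. A level of 10 FPKM was reached by 79 (31.5%), against 39.96% of all genes, and 100 FPKM by 6 (2.39%), against 5.51% of all genes. Values above 0 but under 1 FPKM were listed for 69 members (27.5%), against 14.1% of all genes, so that a larger share of carriers than of genes at large was listed at a trace level. An exact 0 was listed for 18 members (7.17%), against 12.7% of all genes. All 251 members have descriptive symbols, that is, no provisional, clone or small RNA names. Of the genes with such symbols, 77.8% reached 1 FPKM, 43.9% reached 10 FPKM and 8.57% were listed at 0. Their median was 7.49 FPKM. The 6 highest members held 34.3% of the summed FPKM of the group and the 25 highest held 62.6%, while the whole group made up 0.674% of the summed FPKM of the library. Matching shares were not computed for all genes, so this unevenness is not shown to be particular to carriers.

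**Figure D1:**
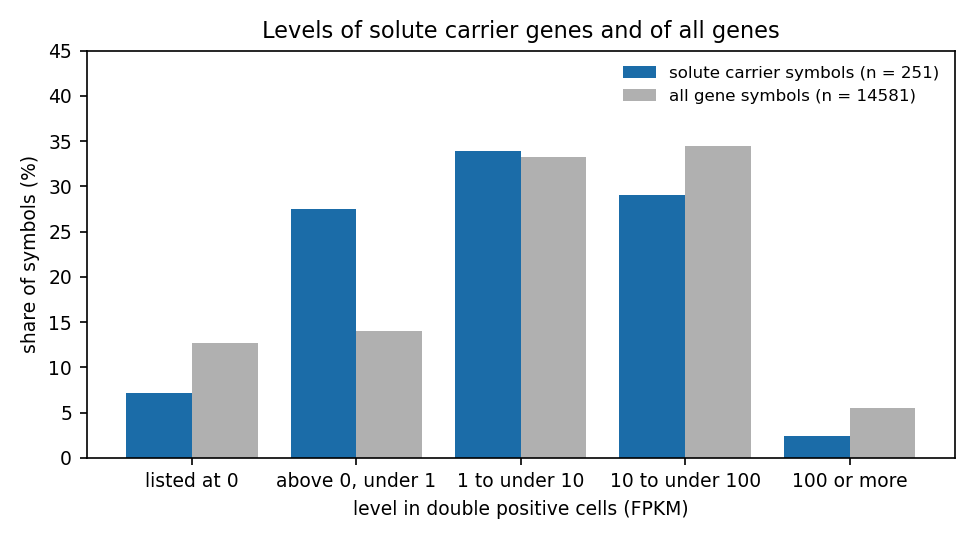
Share of the 251 solute carrier symbols (blue) and of all 14581 gene symbols (grey) in each band of FPKM in double positive cells, in percent. The carriers exceed all genes most in the band above 0 and under 1 FPKM, 27.5% against 14.1%, and fall short of them at 100 FPKM or more, 2.39% against 5.51%.

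Carriers above 100 FPKM included those of mitochondria, nucleosides, amino acids and phosphate. The highest was slc25a22, at 338 FPKM and rank 227 of the library. It belongs to the family of mitochondrial carriers, and in the current RefSeq gene table this symbol is a synonym of slc25a55a, so the role known for mammalian SLC25A22 was not carried over to it. The mitochondrial phosphate carrier gene slc25a3b stood at 231 FPKM. The gene slc29a1a, which encodes an equilibrative carrier for nucleosides such as adenosine, stood at 228 FPKM, 0.533 times the level of kdrl at 428 FPKM. The neutral amino acid carrier gene slc38a2 stood at 195 FPKM, 0.456 times that of kdrl. These 3 carriers lay at the 97.2nd rank percentile or above. The sodium-phosphate cotransporter gene slc20a1b stood at 111 FPKM. No member by the symbol rule reached the top 1 percent of genes, and 6 members lay in the top 5 percent.

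**Figure D2:**
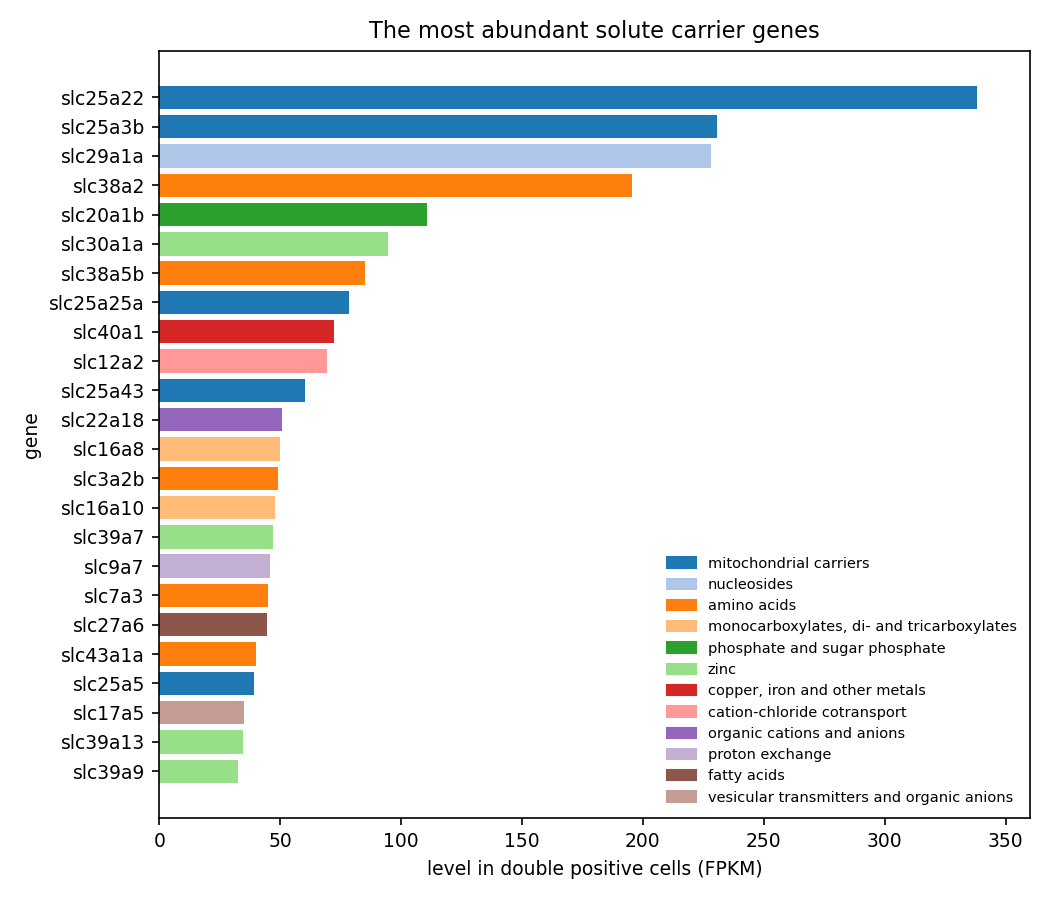
Level in FPKM of 24 of the 25 most abundant solute carrier genes in double positive cells, from the highest at the top, with bars coloured by substrate class. The bars run from slc25a22 at 338 FPKM to slc39a9 at 32.4 FPKM, and the mitochondrial, amino acid and zinc classes hold the most.

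The classes by substrate, set from family numbers, differed widely in level. Of 24 classes, 8 had a median above that of all genes, but 5 did among genes above 0 and 3 of 22 did without the highest member of each class. That last step can only lower a class median or leave it, while the median of all genes was kept as it was. Among classes of at least 3 genes, the metal carriers (17.7 FPKM over 4 genes), the zinc carriers (16.4 FPKM over 17) and the nucleoside carriers (10.5 FPKM over 3) had the highest medians. The bile acid and steroid class (0.0988 FPKM over 4 genes), the organic cation and anion class (0.374 FPKM over 7) and the calcium exchangers (0.461 FPKM over 9) had the lowest. The medians of small classes rest on few genes, and without slc29a1a that of the nucleoside carriers was 5.36 FPKM, below the median of all genes.

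**Figure D3:**
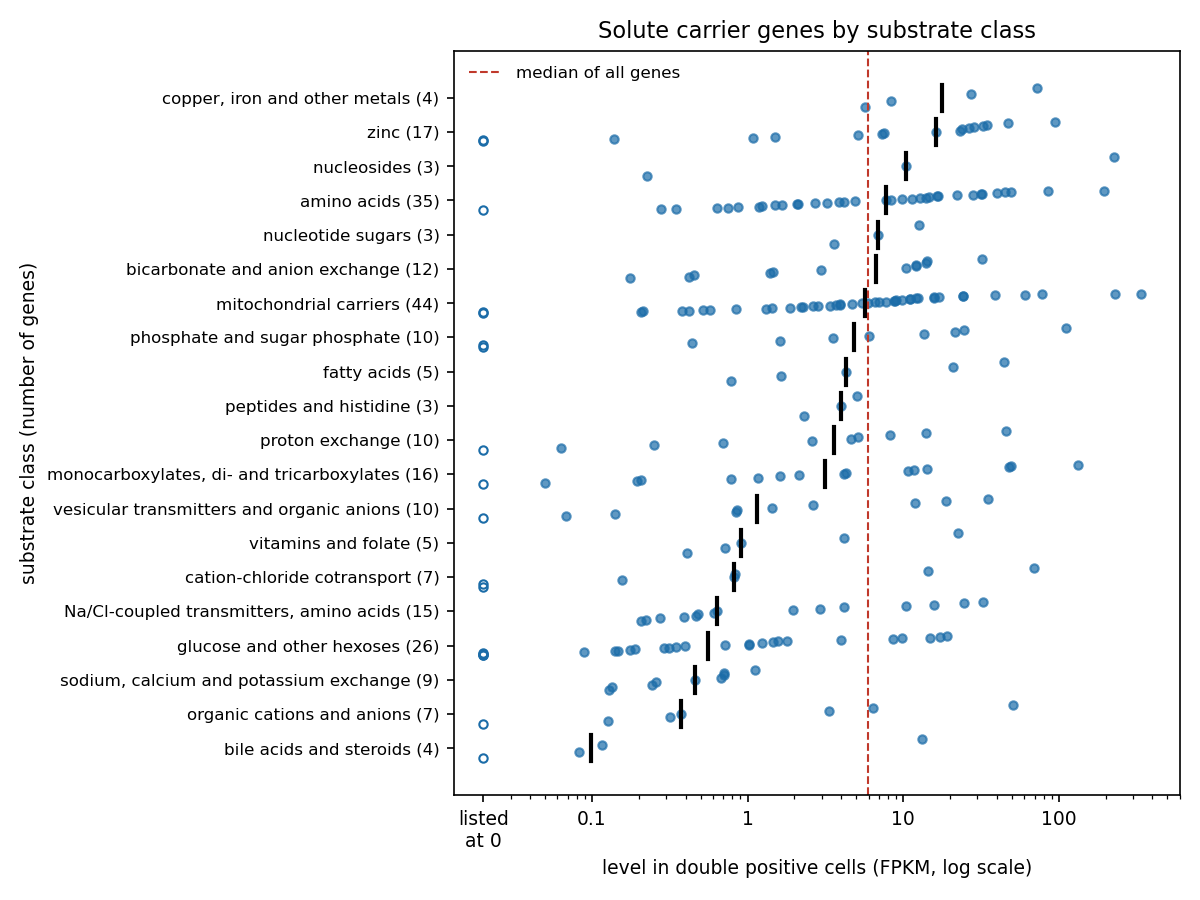
Level in FPKM, on a log axis, of each solute carrier gene in double positive cells, by substrate class for classes of at least 3 genes. Points are genes, open points at the left edge are genes listed at 0, black bars are class medians, and the dashed line is the median of all genes, 5.98 FPKM. Zinc and amino acid carriers have medians right of the line, while most hexose carriers lie left of it.

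The amino acid class had a higher median than the sugar and the monocarboxylate classes. Of 35 genes, which include slc7a6os, a symbol that names no carrier, 29 (82.9%, against 73.3% of all genes) reached 1 FPKM. The median was 7.77 FPKM. A level of 10 FPKM was reached by 15 (42.9%, against 39.96% of all genes). Among genes with descriptive symbols, 77.8% reached 1 FPKM and 43.9% reached 10 FPKM. The slc38 family of sodium-coupled neutral amino acid carriers had the highest single values, and after slc38a2 came slc38a5b, a glutamine and glycine carrier in mammals, at 84.9 FPKM. The lysosomal members slc38a7 and slc38a9 stood at 22.1 and 16.4 FPKM, and slc38a9 is known in mammals as an arginine sensor for growth control. The gene slc38a3a, which is also on the list of endothelial and blood-brain barrier carriers below, stood at 3.86 FPKM. The gene slc7a3, of a carrier for arginine and lysine, stood at 45.1 FPKM, and the table splits this symbol no further although the current gene table holds both slc7a3a and slc7a3b. The facilitators of large neutral amino acids slc43a1a and slc43a2a stood at 39.8 and 28.3 FPKM. The small neutral amino acid exchangers slc1a4 and slc1a5 stood at 12.9 and 9.85 FPKM, whereas the other 10 members of their family, which include the glutamate carriers, lay at 7.77 FPKM or below.

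Exchangers of the slc7 family work as pairs with a heavy chain of the slc3 family that brings them to the cell surface. The heavy chain gene slc3a2b stood at 49.1 FPKM, rank 1708, and its copy slc3a2a at 14.6 FPKM. Of the light chains, slc7a8a stood at 32.2 FPKM and slc7a6 at 31.6 FPKM, so both were below slc3a2b, and slc7a7 stood at 4.18 FPKM. All 5 members of this list with a value exceeded 1 FPKM and 4 (80.0%, against 39.96% of all genes) exceeded 10 FPKM. The light chain gene slc7a5, the best known of the blood-brain barrier, and the remaining members of the list were not analysed here. The gene slc7a6os lies next to slc7a6 in the gene table and is named for the opposite strand. It stood at 3.26 FPKM, and because no source used here says that strand was kept, reads of this pair cannot be told apart with certainty.

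Carriers known from endothelium and the blood-brain barrier ranged from 0.374 to 228 FPKM. Of 39 such symbols listed, 22 had a value. Their median was 14.7 FPKM, and 21 (95.5%, against 73.3% of all genes) reached 1 FPKM. A level of 10 FPKM was reached by 15 (68.2%, against 39.96% of all genes) and 100 FPKM by 3 (13.6%, against 5.51%). Symbols were matched as written, so slc16a1b was counted without a value although its synonym slc16a1 stood at 14.3 FPKM. The list was chosen with earlier results of this library known and holds well-studied genes, so its place above the median of all genes is a description. Below slc29a1a and slc38a2 lay slc38a5b, the iron exporter gene slc40a1 and the sodium, potassium and chloride cotransporter gene slc12a2. The taurine carrier gene slc6a6b stood at 32.4 FPKM. The organic anion carrier gene slc22a7a was lowest at 0.374 FPKM, and its copy slc22a7b stood at 6.44 FPKM. Other listed members also lay below the median of all genes. They were slc16a3 at 4.31 FPKM, slc7a7 at 4.18 FPKM, slc38a3a at 3.86 FPKM and slc2a3a at 1.79 FPKM.

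**Figure D4:**
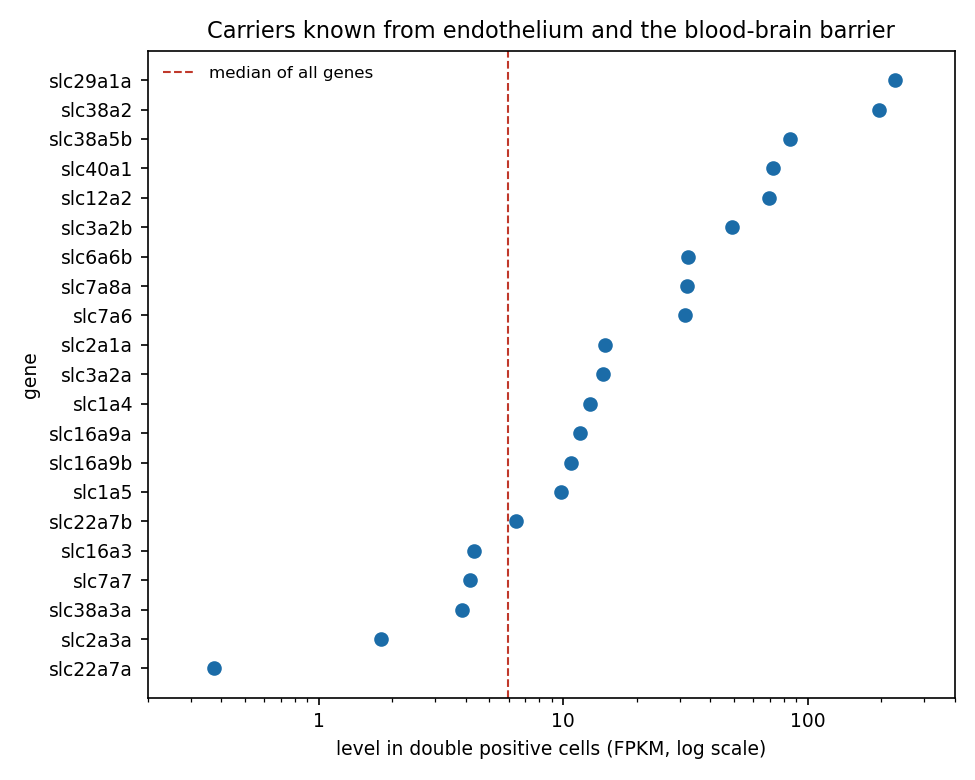
Level in FPKM, on a log axis, in double positive cells of 21 carriers known from endothelium and the blood-brain barrier, from the highest at the top. The points run from slc29a1a at 228 FPKM to slc22a7a at 0.374 FPKM, the dashed line is the median of all genes, 5.98 FPKM, and the glucose carrier gene slc2a1a lies at 14.9 FPKM.

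The sugar class, set by family number, was low, and it also holds genes of other substrates, such as slc5a5 and slc5a6. Of its 26 genes, 12 (46.2%, against 73.3% of all genes) reached 1 FPKM and 3 (11.5%, against 39.96%) reached 10 FPKM. The median was 0.558 FPKM, and 4 genes (15.4%, against 12.7%) were listed at 0. The slc2 family alone had a median of 1.56 FPKM over 13 genes, with 2 listed at 0. The 3 highest genes of the class were all facilitative hexose carriers of the slc2 family. They were slc2a12 at 19.005 FPKM, slc2a8 at 17.2 FPKM and slc2a1a at 14.9 FPKM. The last of these is a copy of the main glucose carrier gene of the mammalian blood-brain barrier, and it lay at the 68.3rd rank percentile. The neuronal type glucose carrier slc2a3a, also on the list of endothelial carriers, stood at 1.79 FPKM and the liver and pancreas type slc2a2 at 0.719 FPKM. Sodium-coupled carriers of the slc5 family were lower still. Their highest member was the vitamin carrier slc5a6 at 1.46 FPKM, and the gut and kidney glucose carriers slc5a1 and slc5a2 stood at 0.397 and 0.313 FPKM. The iodide carrier slc5a5 was listed at 0.

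Carriers of monocarboxylates, dicarboxylates and sulfate had a median of 3.14 FPKM over 16 genes. Of these, 6 (37.5%, against 39.96% of all genes) reached 10 FPKM. The gene slc16a10, of a carrier of aromatic amino acids, stood at 47.9 FPKM. The lactate carrier slc16a8, known in mammals from the retinal pigment epithelium, stood at 49.7 FPKM. That exceeded the widely used lactate carrier slc16a1 at 14.3 FPKM and the glycolytic type slc16a3 at 4.31 FPKM. In the current gene table slc16a1 is a synonym of slc16a1b and slc16a3 of slc16a3b. Each value may therefore stand for the b copy, but the annotation behind the values is not known. The symbol slc16a1a had no value here. The copies slc16a9a and slc16a9b stood at 11.7 and 10.8 FPKM. Basigin, the surface partner of lactate carriers encoded by bsg, stood at 195 FPKM. In the same class the slc13 family of sulfate and dicarboxylate carriers stayed low, with slc13a4 the highest of its 5 genes at 1.62 FPKM.

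Nucleoside, fatty acid and vitamin carriers were led by slc29a1a, slc27a6 and slc52a2. Beside slc29a1a, the second equilibrative nucleoside carrier slc29a2 stood at 10.5 FPKM and slc29a4 at 0.226 FPKM. Of 5 fatty acid transport proteins, slc27a6, known from the mammalian heart, stood at 44.4 FPKM and slc27a1a at 20.8 FPKM, and the liver type slc27a2a at 0.786 FPKM. Among vitamin carriers the riboflavin carrier slc52a2 stood at 22.7 FPKM, while the proton-coupled folate carrier slc46a1 stood at 4.17 FPKM. The ascorbate carrier slc23a1 was listed at 0.907 FPKM. The 3 peptide carriers of the slc15 family lay between 2.31 and 5.08 FPKM, with the gut type slc15a1b the highest.

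Zinc and iron carriers were among the families with the highest medians, but the iron families slc40 and slc11 held 1 valued gene each. Zinc is moved out of the cytoplasm by slc30 and into it by slc39 carriers, and the family medians were 16.4 FPKM over 9 genes and 15.6 FPKM over 8 genes. The medians of the slc3 and slc20 families, 31.8 FPKM over 2 genes and 24.7 FPKM over 3, were higher. The gene slc30a1a, of the exporter at the cell surface, stood at 94.4 FPKM, rank 7 among the members by the symbol rule. Importers of the secretory pathway followed. They were slc39a7 of the endoplasmic reticulum at 46.9 FPKM, slc39a13 at 34.5 FPKM and slc39a9 at 32.4 FPKM, and the Golgi exporters slc30a5 and slc30a7 stood at 28.7 and 26.5 FPKM. The gut type importer slc39a4 stood at 0.139 FPKM, and slc30a2 was listed at 0. For iron, slc40a1, the gene of the exporter ferroportin, stood at 72.2 FPKM, and the importer slc11a2 at 27.2 FPKM. The copper carrier genes slc31a1 and slc31a2 stood at 8.32 and 5.67 FPKM.

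Ion carriers differed in level by class. In the cation and chloride class, slc12a2 stood at 69.2 FPKM and slc12a9 at 14.4 FPKM, while the other 5 genes lay at 0.836 FPKM or below. That low group holds the sodium chloride cotransporter slc12a3 and the ionocyte cluster slc12a10.1, slc12a10.2 and slc12a10.3. The anion exchanger genes slc4a2a and slc4a2b stood at 32.3 and 14.3 FPKM. The red cell anion exchanger slc4a1a stood at 10.4 FPKM beside the globin genes given above. Among proton exchangers the Golgi type slc9a7 stood at 45.9 FPKM and the endosomal slc9a6a at 14.01 FPKM. The median of the 10 genes of this class, which include the scaffold gene slc9a3r1, was 3.603 FPKM. Carriers of the slc8 and slc24 families, which exchange sodium for calcium in heart, nerve and pigment cells, lay at 1.12 FPKM or below in all 9 genes. Among sodium-phosphate carriers slc20a1b was followed by slc20a2 at 24.7 FPKM and slc34a2b at 13.5 FPKM.

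Mitochondrial carriers were the largest family, with 44 genes and a median of 5.66 FPKM, close to the 5.98 FPKM of all genes. Of these, 35 (79.5%, against 73.3% of all genes) reached 1 FPKM and 14 (31.8%, against 39.96%) reached 10 FPKM. Among genes with descriptive symbols, 77.8% and 43.9% did. Below slc25a22 and slc25a3b, the carrier of ATP and magnesium slc25a25a stood at 78.6 FPKM and slc25a43 at 60.3 FPKM. The exchangers of ADP for ATP were unequal. The gene slc25a5 stood at 38.97 FPKM, whereas slc25a4 and slc25a6 were listed at 0.212 and 0.420 FPKM, and reads of such similar copies may have been divided unevenly. Carriers used in heme synthesis were intermediate, with slc25a37, the mitochondrial iron importer of red cells, at 9.05 FPKM and the glycine carrier genes slc25a38b and slc25a38a at 11.003 and 5.403 FPKM. A related iron carrier gene, slc25a28, was listed at 0. The branched-chain amino acid carrier slc25a44b stood at 24.2 FPKM and the glutathione carrier slc25a39 at 15.7 FPKM.

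The class of vesicular and organic anion carriers had a median of 1.14 FPKM over 10 genes. Of these, 5 (50.0%, against 73.3% of all genes) reached 1 FPKM. The highest member of the class was slc17a5, the lysosomal exporter of sialic acid, at 35.04 FPKM. The lysosomal heme carrier genes slc48a1b and slc48a1a stood at 9.52 and 4.81 FPKM. In the endoplasmic reticulum and Golgi, the acetyl-CoA carrier slc33a1 stood at 10.1 FPKM, and the 3 members of the nucleotide sugar family caught by the symbol rule lay between 3.604 and 12.7 FPKM, with slc35a4 the highest. The vesicular nucleotide carrier slc17a9b stood at 18.8 FPKM. In the organic cation and anion class slc22a18, known as an imprinted gene in mammals, stood at 50.8 FPKM. The other 6 genes of the class lay at 6.44 FPKM or below. In the current gene table slc22a18 is a synonym of slc67a1, so its place in this class rests on the older symbol. Of the 4 genes in the bile acid family, slc10a3 stood at 13.3 FPKM, and slc10a2, slc10a4 and slc10a7 lay at 0.115 FPKM or below.

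Carriers of transmitters divided into a few present and many at trace levels. The class of sodium- and chloride-coupled carriers, slc6, had a median of 0.640 FPKM over 15 genes. Of these, 4 (26.7%, against 39.96% of all genes) reached 10 FPKM. Beside slc6a6b these were the serotonin carrier slc6a4a at 24.6 FPKM, the GABA and taurine carrier slc6a13 at 15.8 FPKM and the glycine carrier slc6a9 at 10.5 FPKM. The vesicular monoamine carrier slc18a2 stood at 11.98 FPKM. The dopamine carrier slc6a3 and the neuronal glycine carrier slc6a5 stood at 0.466 and 0.207 FPKM. Vesicular glutamate carriers of neurons lay between 0 and 2.63 FPKM (slc17a6b, slc17a7, slc17a6a and slc17a8), and the vesicular GABA carrier slc32a1 at 0.850 FPKM. The glial glutamate carrier slc1a2b stood at 7.77 FPKM and the other glial type, slc1a3b and slc1a3a, at 2.72 and 2.12 FPKM. The pigment cell genes slc45a2 and slc24a5 stood at 0.175 and 0.129 FPKM. The gene slc26a5, whose mammalian protein is the motor of cochlear hair cells, stood at 14.1 FPKM.

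Many zebrafish carrier genes exist as a and b copies, left from a genome duplication in fish ancestors, and such pairs were often unequal in these cells. Both copies had a value in 33 pairs, with the a copy higher in 17 and the b copy in 16. In 17 pairs the higher copy reached 10 FPKM. Of these, 7 were apart by 4-fold or more, 1 was apart by under 2-fold, and in 2 the lower copy was listed at 0. Choosing pairs by their higher copy favours wide ratios, and copies of genes other than carriers were not compared. The widest ratio was in the phosphate carriers of mitochondria, where slc25a3b was 275-fold above slc25a3a at 0.837 FPKM. It was 59.3-fold in the red cell anion exchanger, with slc4a1a above slc4a1b at 0.176 FPKM. The b copy led at slc20a1 by 31.1-fold and the a copy at slc25a25 by 29.6-fold. The a copy also led at slc27a1 by 12.6-fold, at slc6a4 by 8.45-fold and at slc25a32 by 4.22-fold, and the b copy led at slc25a44 by 3.68-fold. Among these 17 pairs, slc16a9 was closest in level, at 1.09-fold. For the zinc exporter slc30a1 and the phosphate carrier slc34a2 no ratio was formed, since slc30a1b and slc34a2a were listed at 0.

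**Figure D5:**
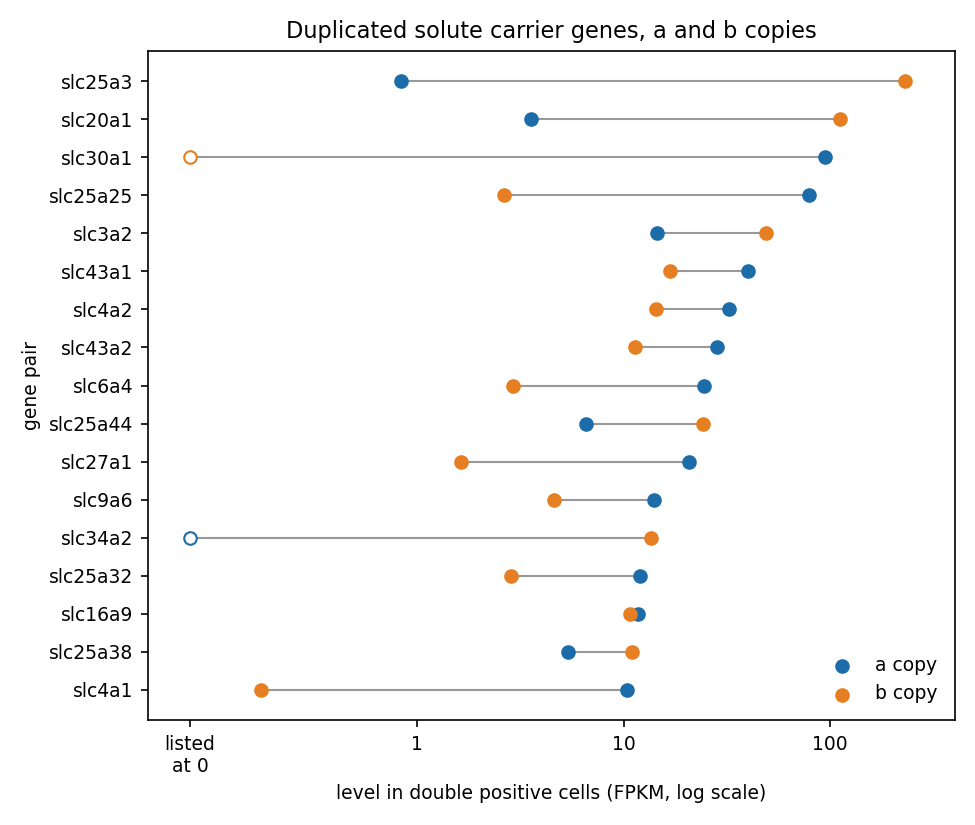
Level in FPKM, on a log axis, of the a copy (blue) and the b copy (orange) in double positive cells, for the 17 gene pairs whose higher copy reached 10 FPKM. Open points at the left edge are copies listed at 0. The pair slc25a3 lies furthest apart among pairs with both copies above 0, at 275-fold, and slc16a9 lies closest, at 1.09-fold.

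Values of 0 say only that a gene is listed at 0, since the deposited values are estimates and the depth behind them is unknown. How reads mapping to several places were treated is not known either, so the levels of near-identical copies are uncertain. Besides slc25a28 and the genes named above, the 18 members listed at 0 include the gut and kidney sulfate carrier slc13a1, the fructose carrier slc2a5 and the proton exchanger slc9a2. Of the 251 symbols, 3 name no carrier. They are slc7a6os, the scaffold gene slc9a3r1 (now nherf1a) at 8.22 FPKM and the antisense gene slc34a2aas, which was listed at 0 together with slc34a2a. Class counts and class medians include these symbols and were not recomputed without them.

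Carriers and transport partners whose symbols fall outside the rule also ranged from abundant to listed at 0. Of 35 such symbols listed, 23 had a value, with a median of 9.75 FPKM. Of these, 19 (82.6%, against 73.3% of all genes) reached 1 FPKM and 11 (47.8%, against 39.96%) reached 10 FPKM. A level of 100 FPKM was reached by 4 (17.4%, against 5.51%). The highest was rhag, the gene of a red cell membrane glycoprotein that moves ammonia, at 298 FPKM. The sphingosine-1-phosphate exporter gene spns2 stood at 217 FPKM and the multidrug exporter gene abcg2a at 146 FPKM. Only 3 and 4 of the members by the symbol rule exceeded these levels. The gene mfsd2ab, a relative of the mammalian lipid carrier of brain endothelium, stood at 42.4 FPKM and mfsd2aa at 4.65 FPKM. The organic anion carrier genes slco2b1 and slco1c1 stood at 43.8 and 8.79 FPKM.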

How the data were processed

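RNA of cells sorted from zebrafish embryos was sequenced. The tools were TopHat2 2.0.11, Cufflinks 2.2.1 and cutadapt, and the genome build was Zv9 (danRer7), per the submitters' processing notes. The authors deposited 1 FPKM value per gene symbol for the double positive library, and FPKM from cuffdiff is named in the title of the deposited sheet. The sources used here give neither the annotation nor the filters nor the treatment of reads mapping to several places. In a second table, 2 per-sample value columns went unused, since no label ties their codes to samples. Only its gene names were read, so the planned comparisons between populations were not made.

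Members were matched by symbol, with no filter on low values. Of the 251, 233 are current symbols in the RefSeq table of assembly GRCz12tu, 17 match a current gene as a synonym and 1 has no single match. Genes were ranked by FPKM with ties at their mean rank, and medians and counts were set beside all genes. Classes were set by family number, so a class can hold genes with other substrates. Python 3.11.15 and pandas 2.3.3 were used, and ranking and pairing were tested on simulated data. Members and lists were chosen with earlier results of these data known. The rule for named genes took the 25 highest members, the highest of each class of at least 3 genes, the members of the lists of endothelial carriers and of heavy and light chains, and the 8 pairs with the largest ratio. Of these, 1 gene is not reported here. Other members were named after their values were seen.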

Additional observations from a re-analysis of the deposited data

How the results depend on the processing

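The members' median stayed below that of the genes it was set against under each alternative run. It was 4.02 FPKM, against 8.32 FPKM, among genes above 0, and 9.65 FPKM, against 11.8 FPKM, among genes of at least 1 FPKM. It was 3.56 FPKM with slco genes and all current slc symbols added, and 3.37 FPKM without the 3 symbols that name no carrier, an alternative chosen after seeing the data. The median rank percentile was 34.8 among genes above 0, 44.4 among genes of at least 1 FPKM, 35.8 among genes with descriptive symbols and 40.5 without those 3 symbols. With all values rescaled to the fixed sum that TPM uses, 103 of the 251 members and 51.999% of all genes reached 10 units. Without the most abundant gene, 107 of the 251 members and 53.9% of all genes did. Each rescaling multiplies all values by the same factor, so the order of the genes is unchanged. The number of classes with a median above that of all genes was 5 among genes above 0 and 10 of 23 among genes of at least 1 FPKM. By construction both cuts raise the median of all genes and can only raise a class median or leave it. The number was 6 of 20 when classes of at least 3 genes were counted. It was 3 of 22 without each class's highest member, and these were the metal, zinc and amino acid classes. Of pairs with both copies at 1 FPKM or more, 5 of 17 were apart by 4-fold or more. Leaving out the highest member can only lower a class median or leave it, and the median of all genes was kept as it was. The median fell in all 22 classes that had another member, so this fall is no result about the carriers. No paired analysis was possible because there was 1 library per group. Leaving out replicates was not run for the same reason. Other settings of pseudocount, filter and fold size for differences between populations were not run, since those differences were not computed. The depth is not known, so no limit of detection was set.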

Other observations

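Members that are direct neighbours among protein-coding genes of the current gene table were compared after the values were seen. There were 8 such neighbouring pairs. The adjacent mitochondrial carrier genes slc25a5 and slc25a43 stood at 38.97 and 60.3 FPKM. The remaining neighbours were low or unequal. The kidney and gut amino acid carrier genes slc6a18 and slc6a19a stood at 0.391 and 0.481 FPKM, the proton exchanger genes slc9a3.1 and slc9a3.2 at 0.249 and 0.0633 FPKM, and slc25a29 and slc25a47a at 5.92 and 1.44 FPKM. The multidrug extrusion genes slc47a1 and slc47a2 stood at 0 and 0.128 FPKM, and the ionocyte genes slc12a10.2, slc12a10.3 and slc12a10.1 at 0.157, 0 and 0 FPKM.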
